A study of Mus musculus with 9 samples.

Results

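Granulocyte-macrophage progenitors (GMPs) with a heterozygous deletion of Dicer1 were compared with GMPs that kept both copies. The comparison rests on the 3 arrays labelled Dicer het and the 3 labelled Dicer wt, 6 of the 9 arrays of the series. The arrays were assigned by these labels, and the comparison itself was chosen with earlier results of these data known. The other 3 arrays, labelled Dicer null, entered the same fit and are set beside the results. All donors carried Cebpa-Cre, a Cre recombinase driven by the Cebpa locus, and R26-LSL-Eyfp, a reporter that Cre switches on. The labels give 1 background for every array, in which the donors had 1 or 2 floxed Dicer1 alleles. The genotype label then reads wild type, heterozygous deletion or null. Donor fetal livers were taken at embryonic day 13.5 and their cells were injected into C57BL/6 recipients 6 to 8 weeks old that had been irradiated with 8.5 Gy. EYFP-positive GMPs were sorted from the recipients' marrow 6 to 10 weeks after the transplantation. Because 1 fetal liver could serve more than 1 recipient and the labels do not tie arrays to livers, the p-values measure only the spread between these samples, which may be technical.

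Dicer1 is the ribonuclease that cuts hairpin precursors into microRNAs, and these guide Argonaute proteins to messenger RNAs and lower their stability and translation. GMPs are committed cells of the marrow whose progeny are neutrophils, monocytes and macrophages, and they transcribe the genes of primary granule proteases before those of the later granules. Immediate early genes such as Fos and Jun are transcribed within minutes of a stimulus, and their messenger RNAs are short-lived.

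The sorted cells carried the GMP markers. Of the markers fixed for these cells, 12 were measured above the low-signal filter and had signals of 35.0 to 9083 on the 6 arrays, led by the granule genes Ctsg and Mpo. The lymphoid markers Il7r and Cd3e had signals of 1.66 to 22.6, but not every lymphoid gene was dim. The B lymphoid gene Ighm read 1114, 979 and 1221 on wild-type and 927, 876 and 978 on heterozygous arrays. Cd72, also of the B lineage, read 51.3, 65.4 and 57.0 on wild-type and 35.6, 43.2 and 37.3 on heterozygous arrays. Log2 signals of the genes tested correlated at 0.984 to 0.989 between arrays of 1 genotype. Between wild-type and heterozygous arrays they correlated at 0.981 to 0.985. Wild-type replicate 2 stood apart, since Xist read 2610 and Eif2s3y only 1.13 on that array. Eif2s3y lies on the Y chromosome and read 622 to 759 on the other 5 arrays, where Xist, transcribed from an inactive X chromosome, read 16.4 to 23.1. The labels describe all samples as female. List members whose call changed when wild-type replicate 2 was left out are given both ways.

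Dicer1 RNA was lower on every heterozygous array, by less than in null samples. The brighter of its probe sets read 244, 228 and 223 on wild-type, 169, 201 and 187 on heterozygous and 115, 101 and 97.2 on null arrays. The heterozygous values lay below all wild-type and above all null values. The log2 difference from wild type was -0.31 (SE 0.11, limma adjusted p = 0.217) and did not pass the threshold of 0.05. The other probe set had signals of 136, 122 and 121 on wild-type and 78.8, 66.9 and 70.7 on heterozygous arrays, without overlap. In a fit over all probe sets it fell by 0.72 (SE 0.12, limma adjusted p = 0.0202), and the mean of both probe sets fell by 0.51 (adjusted p = 0.0174). Where the probes lie relative to the deleted part is not given in the sources used here, so these signals do not measure how complete the deletion was.

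Loss of 1 copy went with 172 genes called among 12347 tested, 1.39% of them, by limma at an adjusted p under 0.05. Of these, 86 genes were higher (0.697%) and 86 lower (0.697%) in heterozygous cells, 17 and 29 of them by at least 2-fold. Signals of the heterozygous and wild-type arrays did not overlap for any of the 172 genes, and they did not overlap for 18.3% of all genes tested. The median log2 difference of all genes tested was -0.01 and the median absolute difference 0.13. Differences are of log2(signal + 12), which understates the change of dim genes. In the same fit, null cells differed from wild-type cells in 15.7% and from heterozygous cells in 14.3% of the genes tested. These comparisons share arrays with each other. Leaving out each of the 9 arrays in turn, 80 of the 172 genes passed in every fit, 36 higher and 44 lower. Without heterozygous replicate 2 the count was 99, without heterozygous replicate 3 it was 102, and without wild-type replicate 2 it was 162, of which 119 were among the 172. A change in the share of a cell type among the sorted cells and a change in RNA per cell cannot be told apart in such bulk samples.

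**Figure D1:**
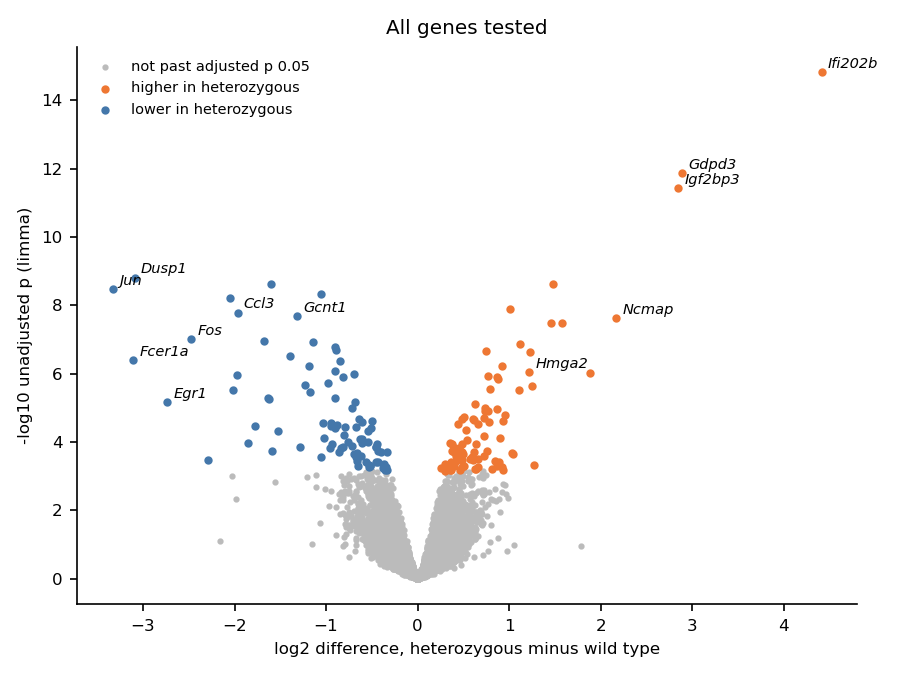
Log2 difference of heterozygous minus wild-type arrays (x axis) against -log10 of the unadjusted limma p (y axis) for the 12347 genes tested, with the 86 higher and 86 lower genes past an adjusted p of 0.05 in colour. Ifi202b, Gdpd3 and Igf2bp3 stand apart on the right, and Jun, Fcer1a and Dusp1 lie farthest to the left.

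Control probe sets for 18S ribosomal RNA were brighter on heterozygous arrays than on the others. The 5′ probe set had signals of 1104, 907 and 1932 on wild-type and 3128, 2548 and 2561 on heterozygous arrays, and the groups did not overlap. The exact permutation test (two-sided) gave 0.1, the smallest p that 3 arrays against 3 allow. The ratio of 3′ to 5′ signal, which rises as RNA degrades, was 6.90 ± 0.47 in wild-type and 6.15 ± 0.17 in heterozygous samples for Gapdh (SD, n = 3). For beta-actin it was 8.87 ± 1.51 and 7.80 ± 0.56. The Gapdh ratio was 6.00 to 6.33 on heterozygous arrays, below 6.56 to 7.44 on wild-type and 7.11 to 7.72 on null arrays. The beta-actin ratios of the genotypes overlapped. The parts of ribosomal RNA content and of RNA quality in the results below were not tested.

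Immediate early genes were among the largest falls. Of 29 tested members of this list, 9 fell and 0 rose, and the median was -0.31, beside -0.01 over all genes tested and 0.697% called lower. The 9 were the AP-1 subunits Fos, Jun and Jund, the zinc finger factor Egr1, the phosphatases Dusp1, Dusp2 and Dusp6, which switch MAP kinases off, the survival gene Ier3, and Zfp36, whose protein promotes decay of cytokine messenger RNAs. The signal summed over all 34 measured members of the list was 9358 to 11414 on wild-type, 5230 to 6195 on heterozygous and 4998 to 6009 on null arrays. Fos alone read 3196 to 4007 on wild-type and 437 to 984 on heterozygous arrays, so it made up much of that difference. Arrays did not overlap for 14 tested members lower and 2 higher, beside 18.3% of all genes tested. Differences ranged from -3.33 to 0.96. Earlier results of these data had already shown Fos and Jun low, so their direction here is not independent evidence.

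Jun had signals of 498, 673 and 569 on wild-type and 69.9, 32.3 and 43.0 on heterozygous arrays, and it fell by 3.33 in log2 units (SE 0.26, limma adjusted p = 5.86e-06). Null minus wild type was -3.68 for Jun, whose second probe set fell by 2.35 in heterozygous cells. Dusp1 read 255, 543 and 290 on wild-type and 35.5, 24.8 and 29.5 on heterozygous arrays, a fall of 3.09 (SE 0.23, adjusted p = 4.75e-06). No heterozygous array approached the lowest wild-type value of either gene. Fos, the brightest of these genes, read 3196, 3953 and 4007 on wild-type and 984, 659 and 437 on heterozygous arrays, a difference of -2.47 (SE 0.25). Egr1 read 102, 365 and 224 on wild-type and 30.4, 23.0 and 11.2 on heterozygous arrays, a difference of -2.73 (SE 0.39, adjusted p = 0.0017). Wild-type replicate 2 had the highest Egr1, Dusp1, Jun and Jund signals, but each of these genes passed without it. Egr1 did not pass with the robust variance prior (adjusted p = 0.0587).

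The smaller falls in the list differed in how firmly they held. Zfp36 read 85.7, 92.6 and 100 on wild-type and 54.5, 34.4 and 40.6 on heterozygous arrays and fell by 0.94 (SE 0.15, limma adjusted p = 0.00497). Jund fell by 1.18 (adjusted p = 0.000961), with a second, dim probe set at 0.29 that did not pass. The mean of its probe sets gave -0.44 with an adjusted p of 0.474. Fos, Jun, Jund, Egr1, Dusp1 and Zfp36 passed without any 1 array. The calls of Ier3 (-1.06), Dusp2 (-0.66) and Dusp6 (-0.52) rested on single arrays. Ier3 did not pass without wild-type replicates 1 and 2 (adjusted p = 0.0629 and 0.0876) or heterozygous replicates 1, 2 and 3 (0.0506, 0.0648 and 0.132). Dusp2 did not pass without wild-type replicates 2 and 3 (0.0721 and 0.0956) or heterozygous replicates 2 and 3 (0.0816 and 0.118). Dusp6 did not pass without wild-type replicates 1, 2 and 3 (0.142, 0.115 and 0.0507), any of heterozygous replicates 1, 2 and 3 (0.126, 0.18 and 0.0626) or null replicate 1 (0.0543). Without wild-type replicate 2 the list had 6 genes lower and 1 higher, the kinase gene Pim1 (0.58, adjusted p = 0.00917, against 0.42 and 0.14 with all arrays).

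Promoter sequences were read for these genes because they moved together. Of the 9 genes, 8 had a RefSeq window of 300 bases used here, 250 before and 50 after the start, on build GRCm38.p6. Both strands were searched. The full cAMP response element TGACGTCA occurred in the window of Dusp1 and its core TGACGT, which the full element contains and which was chosen after the windows were seen, in those of Dusp1 and Fos. The CArG box, the core of the serum response element, occurred in the window of Zfp36. Egr1 was the gene without a window, and sequence outside the windows was not searched. A gene without a match here may therefore hold any of these elements elsewhere. AP-1 sites (TGAGTCA), EGR sites (GCGTGGGCG) and heat shock elements occurred in 0 of the 8. Over all 32851 windows of the same length, 1.79% held the full element, 7.51% the core, 1.63% the CArG box, 5.20% the AP-1 site, 0.612% the EGR site and 0.603% the heat shock element. The 250 bases before the start are shown for the genes with a match, with the matches in capitals. They lie at chr12:85473640-85473889 on the plus strand for Fos, chr17:26508473-26508722 on the minus strand for Dusp1 and chr7:28379229-28379478 on the minus strand for Zfp36.
Fos: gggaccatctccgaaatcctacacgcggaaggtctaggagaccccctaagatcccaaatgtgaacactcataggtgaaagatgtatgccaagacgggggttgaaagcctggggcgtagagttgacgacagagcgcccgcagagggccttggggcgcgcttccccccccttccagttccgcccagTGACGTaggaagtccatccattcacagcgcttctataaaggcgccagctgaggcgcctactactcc
Dusp1: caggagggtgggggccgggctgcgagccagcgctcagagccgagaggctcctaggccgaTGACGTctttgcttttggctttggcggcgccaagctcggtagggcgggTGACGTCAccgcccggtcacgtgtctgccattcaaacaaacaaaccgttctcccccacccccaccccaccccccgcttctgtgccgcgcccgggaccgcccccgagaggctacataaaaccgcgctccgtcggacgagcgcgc
Zfp36: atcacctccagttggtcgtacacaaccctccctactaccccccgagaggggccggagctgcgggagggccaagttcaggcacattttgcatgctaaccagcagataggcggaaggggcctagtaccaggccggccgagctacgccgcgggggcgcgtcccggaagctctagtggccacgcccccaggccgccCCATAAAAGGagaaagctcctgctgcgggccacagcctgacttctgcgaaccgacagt

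Heat shock genes gave no call over all arrays and 2 lower without wild-type replicate 2. Of 18 tested members 0 rose and 0 fell by limma, and the median was 0.01. The arrays did not overlap for 1 higher and 2 lower, beside 18.3% of all genes tested. Hspa1b, an inducible HSP70 chaperone, read 720, 158 and 623 on wild-type and 43.9, 87.8 and 200 on heterozygous arrays, with a log2 difference of -2.02 (SE 0.49, adjusted p = 0.0619). Its heterozygous values overlapped wild-type replicate 2. Without that array the difference was -2.69 (adjusted p = 0.00162). Its near-identical copy Hspa1a, whose probes may not be specific, gave -1.56 (adjusted p = 0.0757) with it and -2.13 (adjusted p = 0.0013) without it. Without heterozygous replicate 3 Hspa1b also passed, at -2.52 (adjusted p = 0.0238), and with array weights at -2.07 (adjusted p = 0.0271). Bag3, a co-chaperone of HSP70, gave -0.77 (adjusted p = 0.074). Among 18 NF-kB and chemokine genes, with a median of -0.17, Ccl3 and Nfkbia fell and 0 rose, beside 0.697% of all genes tested called lower. The chemokine Ccl3 read 63.8, 78.4 and 69.5 on wild-type and 8.19, 11.1 and 8.04 on heterozygous arrays, a difference of -1.97 (SE 0.17, adjusted p = 1.84e-05). Nfkbia, the inhibitor of NF-kB, gave -0.53 (adjusted p = 0.0424). It did not pass without wild-type replicates 1 and 2 (0.142 and 0.125), any of heterozygous replicates 1, 2 and 3 (0.0707, 0.12 and 0.177) or null replicate 2 (0.0596).

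**Figure D2:**
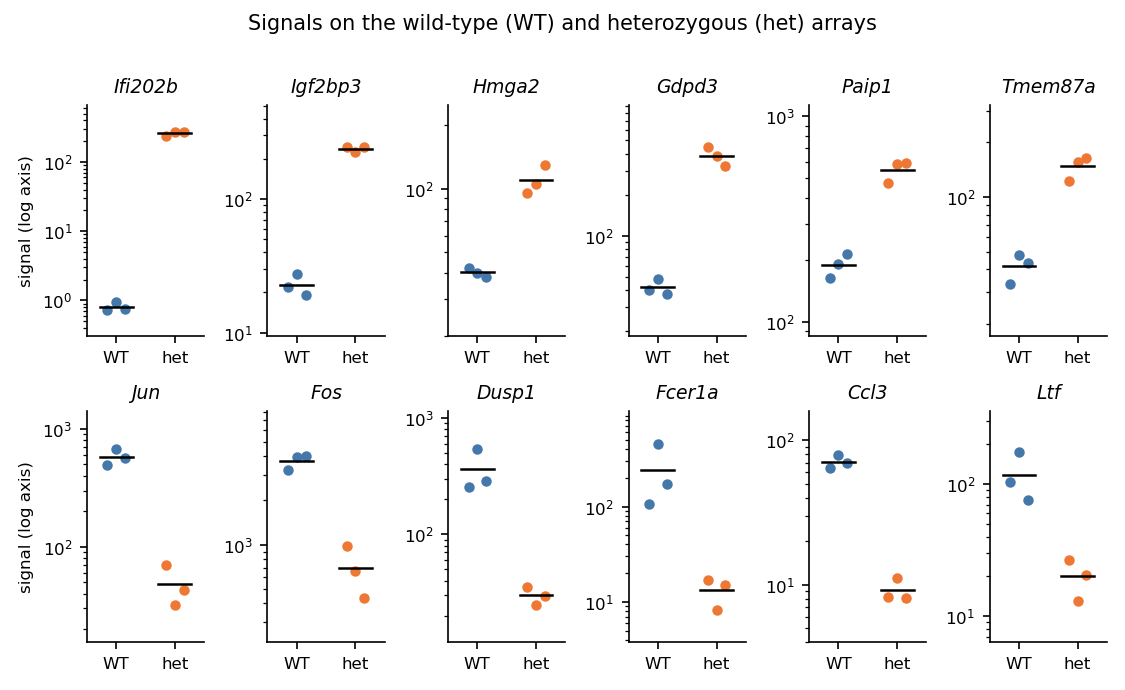
Signals (y axis, log scale, MAS5 intensity) of 12 genes on the 3 wild-type and 3 heterozygous arrays, with a bar at the mean of each group. The top row holds genes that were higher and the bottom row genes that were lower in heterozygous cells, and in each panel the groups do not overlap.

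Genes of late neutrophil granules were lower for 4 of 20 tested members, Ltf, Ngp, Lcn2 and Chil3, and higher for 1, Anxa1, with a median of -0.24. Of all genes tested, 0.697% were called lower and 0.697% higher. Ltf encodes lactoferrin, a protein of the secondary granules. It read 103, 174 and 76.5 on wild-type and 26.8, 12.9 and 20.4 on heterozygous arrays, and its groups did not overlap (-1.97, SE 0.24, limma adjusted p = 0.000411). Lcn2, the iron-scavenging neutrophil protein lipocalin 2, read 93.4, 155 and 117 on wild-type and 26.3, 16.1 and 40 on heterozygous arrays (-1.78, SE 0.30, adjusted p = 0.00579). Lcn2 did not pass with the robust variance prior (adjusted p = 0.0526) or without the intensity trend (0.0763). The granule protein gene Ngp fell by 1.86 and did not pass without heterozygous replicate 2 (adjusted p = 0.0909). Chil3, a chitinase-like protein, fell by 2.29 and did not pass without wild-type replicates 2 and 3 (0.0975 and 0.0696) or heterozygous replicates 1, 2 and 3 (0.0506, 0.149 and 0.12). Anxa1, the annexin, rose by 0.42 and did not pass without wild-type replicate 2 (0.0856) or heterozygous replicates 1 and 3 (0.0677 and 0.134). The list's brightest members, the calprotectin genes S100a8 and S100a9, gave -0.22 (adjusted p = 0.83) and -0.69 (adjusted p = 0.594). Slpi, a protease inhibitor gene, gave -0.42 (adjusted p = 0.272) and passed as lower without wild-type replicate 2 (-0.66, adjusted p = 0.00575). The summed signal of the list was 13704 to 15259 on wild-type and 11135 to 14468 on heterozygous arrays, so the groups overlapped.

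Other blood cell lists held few calls. Of 14 primary granule genes, 2 rose and 0 fell, with a median of 0.02, beside 0.697% of all genes tested called higher. The 2 were Fcnb, a ficolin, at 0.92 and Ctsc, the protease that activates granule serine proteases, at 0.59. Fcnb did not pass without wild-type replicates 1 and 2 (adjusted p = 0.156 and 0.109) or heterozygous replicates 1, 2 and 3 (0.135, 0.0509 and 0.177). Ctsc did not pass without wild-type replicates 2 and 3 (0.0898 and 0.059) or heterozygous replicates 1, 2 and 3 (0.0593, 0.0943 and 0.14). The abundant granule genes Mpo (0.08), Elane (-0.16) and Ctsg (0.00) did not pass.

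Among 13 mast cell, basophil and eosinophil genes, with a median of -0.02, Fcer1a alone was called. It encodes the alpha chain of the high-affinity IgE receptor and read 106, 453 and 172 on wild-type and 16.9, 8.26 and 15.1 on heterozygous arrays. The groups did not overlap (-3.11, SE 0.35, limma adjusted p = 0.000198), and the difference was -2.55 when wild-type replicate 2, the highest array, was left out. None of the other tested members passed with all arrays. Prg3, an eosinophil granule gene, gave 0.72 (adjusted p = 0.0509) and passed as higher without wild-type replicate 2 (0.85, adjusted p = 0.0276). Ms4a2, the beta chain of the same receptor, read 561, 998 and 528 on wild-type and 727, 697 and 585 on heterozygous arrays, and the groups overlapped. The mast cell protease gene Cpa3 gave -0.29 (adjusted p = 0.367) and the basophil protease gene Mcpt8 gave -0.22 (adjusted p = 0.684). Their list's summed signal was 5397 to 7768 on wild-type and 5244 to 5818 on heterozygous arrays, with its highest value on wild-type replicate 2.

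Of 28 monocyte, macrophage and dendritic cell genes, with a median of 0.10, Cd14 fell and 0 rose. Crip1, which gave -0.74 (adjusted p = 0.0564), also passed as lower without wild-type replicate 2 (-0.87, adjusted p = 0.0376). Stem and multipotent progenitor genes had 1 of 18 higher (Msi2, an RNA-binding protein, 0.81) and a median of -0.13. The call of Msi2 was lost when any of these arrays was left out, wild-type replicate 3 (adjusted p = 0.0578), any of heterozygous replicates 1, 2 and 3 (0.116, 0.167 and 0.149) or null replicates 1, 2 and 3 (0.0572, 0.059 and 0.0563). By limma 0 of 9 B lymphoid, 0 of 2 T and NK lymphoid, 0 of 11 erythroid and megakaryocyte and 0 of 9 endothelial and stromal genes passed. Without wild-type replicate 2, 2 erythroid genes passed as higher, the transcription factor gene Klf1 at 1.41 (adjusted p = 0.0248) and the carbonic anhydrase gene Car2 at 1.18 (adjusted p = 0.0337). With all arrays they gave 0.61 (adjusted p = 0.674) and 0.51 (adjusted p = 0.683). The platelet factor gene Pf4 read 29.7, 189 and 25.2 on wild-type and 25.5, 39.7 and 17.9 on heterozygous arrays, high on wild-type replicate 2 only (-0.81, adjusted p = 0.52). The part of other cells in that sample in the falls above was not tested.

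Some calls of list members also ended under another setting of the fit. Without the filter on low signals and without the intensity trend, Dusp2, Dusp6, Ier3, Nfkbia, Chil3, Ngp, Anxa1, Fcnb, Ctsc, Msi2, Ifitm1 and Oas1a no longer passed, and Plagl1 did not pass without the filter. Trim30a did not pass without the intensity trend (adjusted p = 0.141). The robust variance prior ended the calls of Chil3 (adjusted p = 0.258), Ngp (0.174), Fcnb (0.0605), Ifitm1 (0.24) and Msi2 (0.105). With the mean of probe sets the difference fell to 0.12 for Msi2 and 0.22 for Plagl1. That setting also ended the calls of Ctsc, Anxa1, Nfkbia, Trim30a, Dusp6, Ier3, Chil3, Ngp, Fcnb, Ifitm1 and Oas1a.

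**Figure D3:**
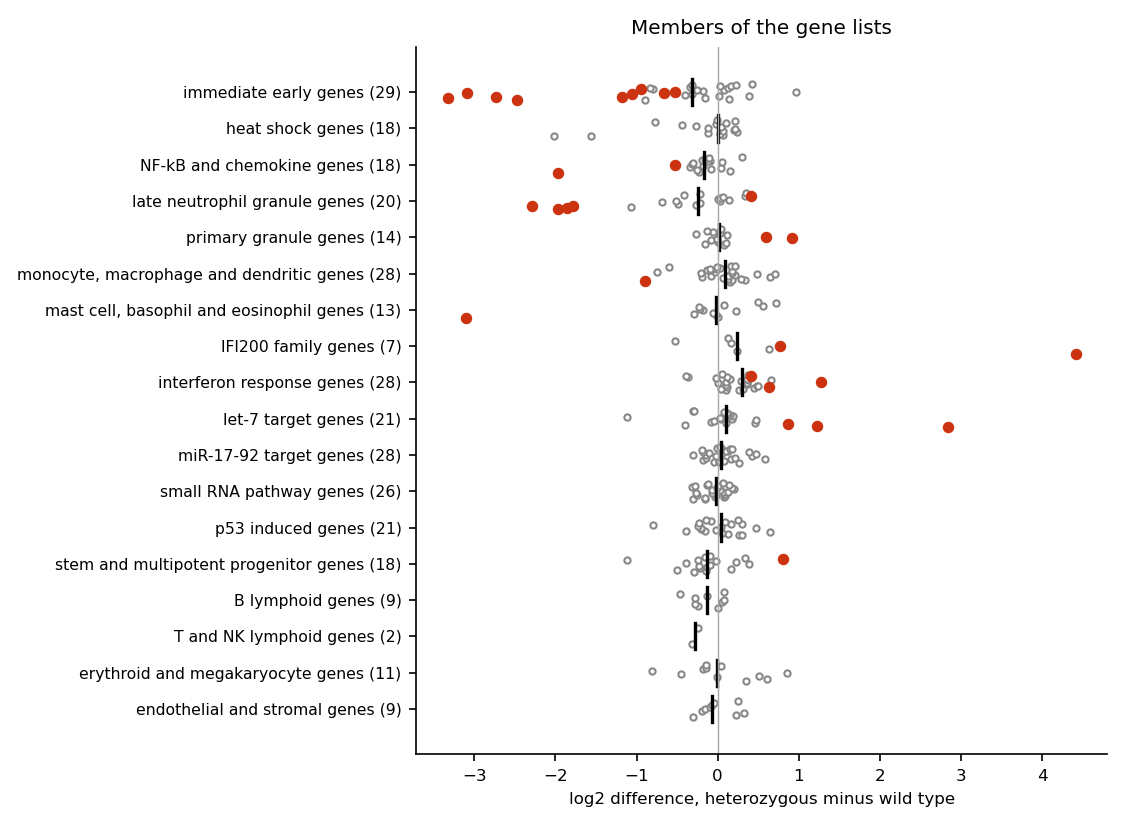
Log2 difference of heterozygous minus wild type for each tested member of 18 gene lists, with the number tested in parentheses, a black bar at the list's median and filled points for genes past an adjusted p of 0.05 by limma. The immediate early list extends furthest to the left, and Ifi202b and Igf2bp3 lie furthest to the right.

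Igf2bp3 and Hmga2 stood out among targets of let-7, a microRNA family that represses fetal growth genes. The family members held in the RefSeq table are shown because they share 1 seed, GAGGUAG (bases 2 to 8, in capitals), through which they pair with targets. The microRNAs themselves were not measured on these arrays.
let-7a-5p: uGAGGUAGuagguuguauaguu
let-7d-5p: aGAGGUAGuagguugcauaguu
let-7g-5p: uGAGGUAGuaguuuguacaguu
let-7i-5p: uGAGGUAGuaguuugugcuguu

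Igf2bp3, a fetal RNA-binding protein, read 21.9, 27.4 and 19.2 on wild-type, 243, 223 and 246 on heterozygous and 285, 295 and 386 on null arrays. All heterozygous values lay far above the wild-type values and below the null values. The difference from wild type was 2.85 (SE 0.13, limma adjusted p = 1.51e-08), and that of null from heterozygous cells, 0.41, did not pass (adjusted p = 0.0541). Of its 5 other probe sets 4 were called higher, with differences of 1.03 to 3.61 over all 5. Hmga2, a chromatin protein of fetal and proliferating cells, read 42.3, 39.8 and 38.3 on wild-type, 95.4, 105 and 130 on heterozygous and 238, 345 and 250 on null arrays. Its 3 genotypes did not overlap, and the heterozygous level lay between the others. The rise over wild type was 1.22 (SE 0.15, adjusted p = 0.000367) and the further rise in null cells 1.23 (SE 0.15, adjusted p = 0.000126). Of its 3 other probe sets 2 were called higher. The pseudogene Hmga2-ps1 rose by 1.25, and the signals of its probes and of those of Hmga2 may not be separate.

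The rest of the let-7 list held 1 more call. Of 21 tested members 3 rose and 0 fell, with a median of 0.10, beside 0.697% of all genes tested called higher. The transcription factor gene Plagl1 rose by 0.87 from dim signals, 12.1, 13.2 and 6.21 on wild-type and 23.6, 29.8 and 33.3 on heterozygous arrays. It passed when wild-type replicate 2 was left out and did not pass without wild-type replicates 1 and 3 (adjusted p = 0.0778 and 0.124), any of heterozygous replicates 1, 2 and 3 (0.0586, 0.146 and 0.17) or null replicates 1, 2 and 3 (0.0566, 0.0547 and 0.0513). Its other probe sets were dim and gave -0.22 to -0.00. The receptor gene Tgfbr1 gave -0.09 in heterozygous and 1.01 in null cells against wild type, and the transcription factor gene Bach1 gave 0.11 and 0.70. Both genes were picked with their values known. By limma 0 of 28 miR-17-92 targets (median 0.04), 0 of 21 p53-induced genes (median 0.04) and 0 of 26 small RNA pathway genes (median -0.02) passed. The genes of smallest p among the miR-17-92 targets were E2f2, a cell cycle transcription factor (0.59, adjusted p = 0.0702), and the retinoblastoma gene Rb1 (0.43, adjusted p = 0.0715). Both passed after quantile normalisation (adjusted p = 0.0474 and 0.0479), and Rb1 with array weights (0.0391). Among p53-induced genes Btg2, an antiproliferative gene, gave -0.80 (adjusted p = 0.106) and passed without heterozygous replicate 1 (-1.03, adjusted p = 0.0432), and Perp gave 0.64 (adjusted p = 0.223). In the small RNA list, the Argonaute gene Ago1 gave -0.26 (adjusted p = 0.249).

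Several of the largest rises were of similar size in null cells. Gdpd3, a lysophospholipase D, read 39.9, 48.1 and 37.4 on wild-type and 445, 387 and 327 on heterozygous arrays (2.88, SE 0.12, limma adjusted p = 8.13e-09). Null arrays read 280, 291 and 253, between the other groups. Paip1, which binds poly(A)-binding protein, read 163, 192 and 213 on wild-type and 473, 585 and 591 on heterozygous arrays, without overlap (1.48, SE 0.11, adjusted p = 4.97e-06). Of its 3 other probe sets 2 were called, up to 3.20. Tmem267 rose by 1.89, Tmem87a by 1.58, Cap1, an actin regulator, by 1.23, Depdc7 by 1.12 and Thg1l, a transfer RNA guanylyltransferase, by 1.11. A second probe set of Thg1l gave -0.97, and the mean of the probe sets gave 0.07 (adjusted p = 0.93). The uncharacterised gene 4930447C04Rik rose by 1.04 and did not pass without wild-type replicates 2 and 3 (0.0544 and 0.0865) or heterozygous replicates 1 and 2 (0.116 and 0.0943). In null cells the 7 genes named here besides Gdpd3 differed from wild type by 0.77 to 1.79.

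Large falls outside the lists were those of Rnf217, a ubiquitin ligase gene (-2.04), the phosphodiesterase gene Pde4b (-2.02), the G-protein regulator gene Rgs1 (-1.62), Gm6958 (-1.68) and Tnfsf13os (-1.64). Rnf217 read 411, 342 and 379 on wild-type and 75.7, 70.2 and 104 on heterozygous arrays, and its 3 other probe sets gave -0.86 to -0.45 with 0 called. Pde4b read 192, 320 and 224 on wild-type and 81.1, 49.6 and 30.0 on heterozygous arrays, but its 5 other probe sets gave -0.17 to 0.23 with 0 called. The fall of Pde4b therefore rests on 1 probe set, and the mean of its probe sets gave -0.36 (adjusted p = 0.371). That of Tnfsf13os gave -0.74 (adjusted p = 0.0594).

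Ifi202b was the largest rise of all. It belongs to the IFI200 family of interferon-inducible DNA sensors and is known to differ between laboratory mouse strains. Its signals were 0.733, 0.952 and 0.755 on wild-type, 242, 269 and 274 on heterozygous and 372, 307 and 314 on null arrays. The wild-type arrays were near the floor of the scale and all others well above it (4.41, SE 0.12, limma adjusted p = 1.88e-11). Beside 0.697% of all genes tested called higher, 2 of 7 tested IFI200 genes rose and 0 fell, with a median of 0.24. The other was Mndal, a family member of much higher signal, at 1575, 1740 and 1408 on wild-type and 2680, 2516 and 2881 on heterozygous arrays (0.77, SE 0.10, adjusted p = 0.000432), and its other probe set was called too, at 0.60. Without wild-type replicate 2, Ifi209 passed as lower (-0.70, adjusted p = 0.047, against -0.52 and 0.171 with all arrays).

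In the list of the general interferon response, 3 of 28 tested members rose and 0 fell, with a median of 0.30. Of all genes tested, 0.697% were called higher. Ifitm1, an antiviral membrane protein, rose by 1.28, Oas1a, a sensor of double-stranded RNA, by 0.63 and Trim30a by 0.42. Ifitm1 read 135, 415 and 170 on wild-type and 575, 486 and 541 on heterozygous arrays, with its highest wild-type value on replicate 2. It did not pass without wild-type replicates 1 and 3 (adjusted p = 0.156 and 0.125) or heterozygous replicates 1, 2 and 3 (0.141, 0.111 and 0.132). Oas1a did not pass without wild-type replicates 1 and 3 (0.105 and 0.143), any of heterozygous replicates 1, 2 and 3 (0.0865, 0.0745 and 0.188) or null replicate 2 (0.0655). Trim30a did not pass without wild-type replicates 1 and 2 (0.101 and 0.102) or heterozygous replicates 2 and 3 (0.139 and 0.149). Ifi35 gave 0.38 (adjusted p = 0.0765) and passed without wild-type replicate 2 (0.46, adjusted p = 0.0387). The summed signal of the interferon list was 3702 to 4525 on wild-type and 4875 to 5304 on heterozygous arrays, without overlap.

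Whether the called genes sat together on chromosomes was described with the RefSeq gene order. Ifi202b and Fcer1a, the largest rise and 1 of the largest falls, lie on the same chromosome with 7 tested genes between them, of which only Mndal was called. Paip1 and Tmem267 are separated by 1 tested gene, 4833420G17Rik, which gave -0.28 (adjusted p = 0.247). Nnt, which lies next to Paip1 and carries a deletion in some C57BL/6 substrains, read 1807, 1544 and 1750 on wild-type and 1229, 1417 and 1650 on heterozygous arrays (-0.25, adjusted p = 0.339). Of 4 tested genes known to differ between strains, Ifi202b was called, while Nnt, Wdfy1 (0.02) and Glo1 (0.17) were not. Among 12281 tested genes with a position, 3 pairs of neighbours were both called, beside 1.39% called of all genes tested. Whether that share alone would give as many pairs was not tested. The pairs were Sh3bp5 with Mettl6 (-0.70 and -0.70), Bbip1 with Shoc2 (0.37 and 0.89) and Vps39 with Tmem87a (0.92 and 1.58). They were picked with their values known. With the mean of probe sets, Sh3bp5 gave -0.30 (adjusted p = 0.444) and Shoc2 gave 0.39 (adjusted p = 0.412). Sh3bp5 did not pass without wild-type replicates 1 and 3 (adjusted p = 0.113 and 0.0786) or heterozygous replicates 2 and 3 (0.119 and 0.0962). Shoc2 did not pass without wild-type replicates 1 and 2 (0.0657 and 0.104) or any of heterozygous replicates 1, 2 and 3 (0.135, 0.101 and 0.113).

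Around Dicer1 itself, 1 of the 20 nearest tested genes was called, beside 1.39% of all genes. It was Ifi27, an interferon-inducible gene, which read 148, 99.7 and 108 on wild-type and 208, 228 and 250 on heterozygous arrays (0.90, SE 0.16, limma adjusted p = 0.0113). On null arrays it read 191, 205 and 132, and null minus wild type was 0.52 (adjusted p = 0.0432). The heterozygous call of Ifi27 was lost without heterozygous replicate 2 (adjusted p = 0.0558) or replicate 3 (0.0669), and without the intensity trend (0.0876). On the whole chromosome that carries Dicer1, 13 of 426 tested genes (3.05%) were called. That share was exceeded by 1 of the 21 chromosomes, at 16 of 417 (3.84%). Fos lies on the same chromosome as Dicer1, with 64 tested genes between them. Strain origin of these regions was not given in the sources used here, and its part in the results was not tested.

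**Figure D4:**
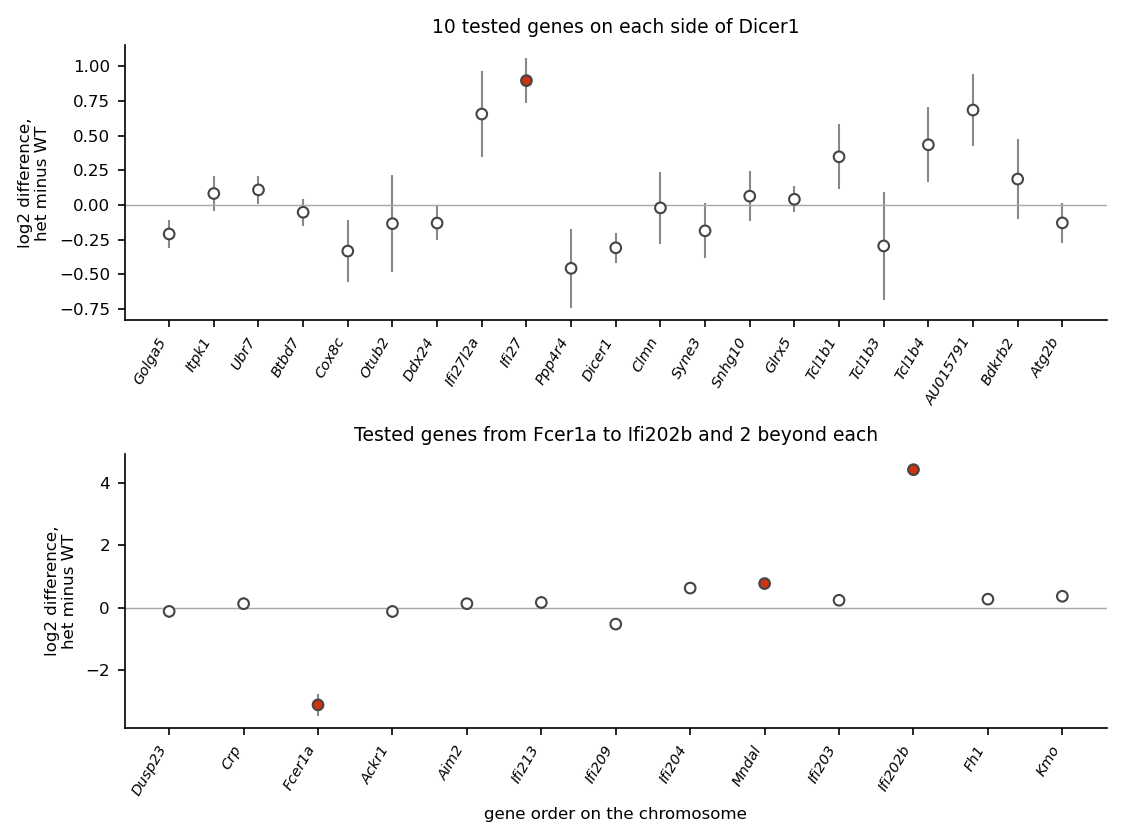
Log2 difference of heterozygous minus wild type (y axis, bars are the SE of the limma fit) for tested genes in chromosome order (x axis, not to scale of distance), around Dicer1 (top) and from Fcer1a to Ifi202b (bottom), with filled points for genes past an adjusted p of 0.05. Ifi27 is the filled point near Dicer1, and Fcer1a, Mndal and Ifi202b are those in the lower panel.

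Some changes were larger in heterozygous cells than in null cells, or were not called in null cells. A contrast of heterozygous arrays with the mean of the other genotypes called 561 genes (4.54%). For 284 of these (2.3%), 140 higher and 144 lower, the 3 heterozygous values also lay outside all 6 others. Heterozygous arrays lay outside all others for 6.41% of the genes tested. A stricter set took genes called in heterozygous against wild type and, in the opposite direction, in null against heterozygous, with the heterozygous values outside all 6 others. It held 43 genes (0.348%), 22 higher and 21 lower in heterozygous cells. The rule asks for a difference from null cells and not for a null level equal to wild type. Against wild type, null cells were called in the same direction for 6 of the 43, in the opposite direction for 7 and not called for 30. The 6 were Gdpd3, Heatr5a, Fkbp9, Adat2, Ptger2 and Ndrg1, with null minus wild type of 2.42, -0.57, -0.58, 0.41, 0.42 and -0.36. Both calls were kept without any 1 array by 14 of them, Ncmap, Pik3ap1, Ift27, Map1lc3a, Ppp4c and Snx3 as higher and Gcnt1, Lcn2, Cep85, Ndrg1, Plin2, Exosc9, Cd14 and Abca13 as lower. Those of the 14 outside the naming rule were picked with their values known. The count of both calls fell lowest without heterozygous replicate 1 (18), replicate 2 (19) or replicate 3 (21) and without wild-type replicate 1 (25).

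Ncmap, a myelin-associated membrane protein of Schwann cells, was at background except in heterozygous cells. Its signals were 1.58, 1.86 and 3.11 on wild-type, 56.2, 45.8 and 53.1 on heterozygous and 2.10, 0.963 and 1.72 on null arrays. Ncmap passed the low-signal filter, a mean over all 9 arrays, only through the heterozygous arrays. The difference from wild type was 2.17 (SE 0.19, limma adjusted p = 2.22e-05) and that of null from heterozygous cells -2.23 (adjusted p = 1.19e-05). Pik3ap1, an adaptor that links receptors to phosphoinositide 3-kinase, read 74.8, 78.3 and 88.8 on wild-type, 212, 222 and 298 on heterozygous and 74.9, 77.0 and 87.0 on null arrays. Wild-type and null arrays overlapped, and heterozygous arrays lay well above them (1.45, SE 0.13, adjusted p = 2.71e-05). Null minus wild type was -0.01 with a 95% interval of -0.30 to 0.27. A second probe set of Pik3ap1 had signals near 1 on all arrays and gave -0.07.

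The smaller rises of the stricter set stood above all other arrays by the rule that chose them. Ift27, a subunit of intraflagellar transport, read 312, 311 and 229 on wild-type, 485, 468 and 470 on heterozygous and 250, 279 and 299 on null arrays (0.73, SE 0.12, limma adjusted p = 0.00419). Map1lc3a, an LC3 protein of autophagosomes, read 64.3, 89.0 and 80.9 on wild-type, 134, 142 and 148 on heterozygous and 87.3, 86.8 and 75.9 on null arrays (0.78, SE 0.13). Wild-type and null values of both genes overlapped and heterozygous values stood above them. Ppp4c, the catalytic subunit of protein phosphatase 4, rose by 0.63 and the sorting nexin gene Snx3 by 0.48. Null minus wild type was 0.18 for Ppp4c and 0.12 for Snx3, neither of them called. All null arrays of Snx3 lay above its wild-type arrays. With the mean of probe sets, Ift27 gave an adjusted p of 0.0572 and Map1lc3a of 0.090, and Snx3 did not pass without the intensity trend (0.0648). Afp, the fetal serum protein, rose by 0.93 from 77.4, 60.2 and 56.4 to 142, 148 and 113, and null arrays read 77.7, 99.6 and 71.7, but its 4 other probe sets gave -0.18 to 0.68 with 0 called, and the mean of its probe sets gave 0.44 (adjusted p = 0.216).

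Gcnt1, a glycosyltransferase that builds core 2 O-glycans such as selectin ligands of leukocytes, had the largest fall after Lcn2 among the 14 genes that kept both calls without any 1 array. It read 546, 525 and 596 on wild-type, 181, 219 and 251 on heterozygous and 577, 566 and 698 on null arrays. Heterozygous arrays stood below all others (-1.32, SE 0.12, limma adjusted p = 2.15e-05), and null minus wild type was 0.14 (adjusted p = 0.493). A dimmer probe set of Gcnt1 gave -0.25 (adjusted p = 0.682). Lcn2 read 205, 78.3 and 198 on null arrays, a null minus heterozygous difference of 2.07 (adjusted p = 0.000552). Cep85, a centrosomal protein, read 339, 305 and 276 on wild-type, 179, 175 and 189 on heterozygous and 355, 341 and 284 on null arrays (-0.72, SE 0.11). With the mean of probe sets Cep85 gave -0.40 (adjusted p = 0.0851). Ndrg1, a stress and hypoxia responsive gene, read 316, 361 and 337 on wild-type, 171, 200 and 177 on heterozygous and 262, 248 and 272 on null arrays. It fell by 0.85 in heterozygous and by 0.36 in null cells (adjusted p = 0.0217 in null). Plin2, a lipid droplet coat protein, fell by 0.51 and Exosc9, a subunit of the RNA exosome, by 0.50 in heterozygous cells. Plin2 and Exosc9 did not pass without the intensity trend (adjusted p = 0.075 and 0.0648).

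In 7 of the 43 genes the null cells moved the other way from wild type. Cd14, the lipopolysaccharide co-receptor of monocytes and macrophages, read 34.0, 28.4 and 38.2 on wild-type, 10.3, 13.4 and 13.3 on heterozygous and 79.5, 90.2 and 95.7 on null arrays. Its 3 genotypes did not overlap, with differences from wild type of -0.90 (SE 0.15, limma adjusted p = 0.00635) in heterozygous and 1.14 (adjusted p = 0.000251) in null cells. Abca13, an ABC transporter, read 70.6, 72.0 and 64.8 on wild-type, 33.4, 32.6 and 30.6 on heterozygous and 103, 89.6 and 136 on null arrays. It also separated the genotypes, at -0.88 (SE 0.15, adjusted p = 0.00568) and 0.56 (adjusted p = 0.0181). The other 5 were Dock9 (-0.82), Rnf141 (-0.61), Mmd (-0.54), Cisd1 (0.40) and Limd2 (0.30). Dock9, an activator of CDC42, did not pass without heterozygous replicates 1 and 2 (0.0825 and 0.0769). Mmd, a monocyte to macrophage differentiation marker, lost its call without wild-type replicate 1 (0.0703) or heterozygous replicate 3 (0.0749). Rnf141 did not pass without wild-type replicate 2 (0.054) or heterozygous replicates 1 and 3 (0.0688 and 0.0719). Cisd1 did not pass without wild-type replicates 1 and 3 (0.139 and 0.118) or heterozygous replicates 1, 2 and 3 (0.132, 0.146 and 0.0962). Limd2 kept its call only when null replicate 1 or null replicate 3 was the array left out, with adjusted p of 0.116, 0.0501 and 0.11 without wild-type replicates 1, 2 and 3, 0.123, 0.114 and 0.111 without heterozygous replicates 1, 2 and 3 and 0.0506 without null replicate 2. With the mean of probe sets Dock9 gave -0.31 (adjusted p = 0.401), Rnf141 -0.24 (0.396), Mmd -0.12 (0.626), Cisd1 0.31 (0.2) and Limd2 0.16 (0.555). Without the intensity trend none of these 5 genes passed. Dock9 (0.0517), Cisd1 (0.0569) and Limd2 (0.0664) did not pass without the filter on low signals, nor did Cisd1 after quantile normalisation (0.0575).

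**Figure D5:**
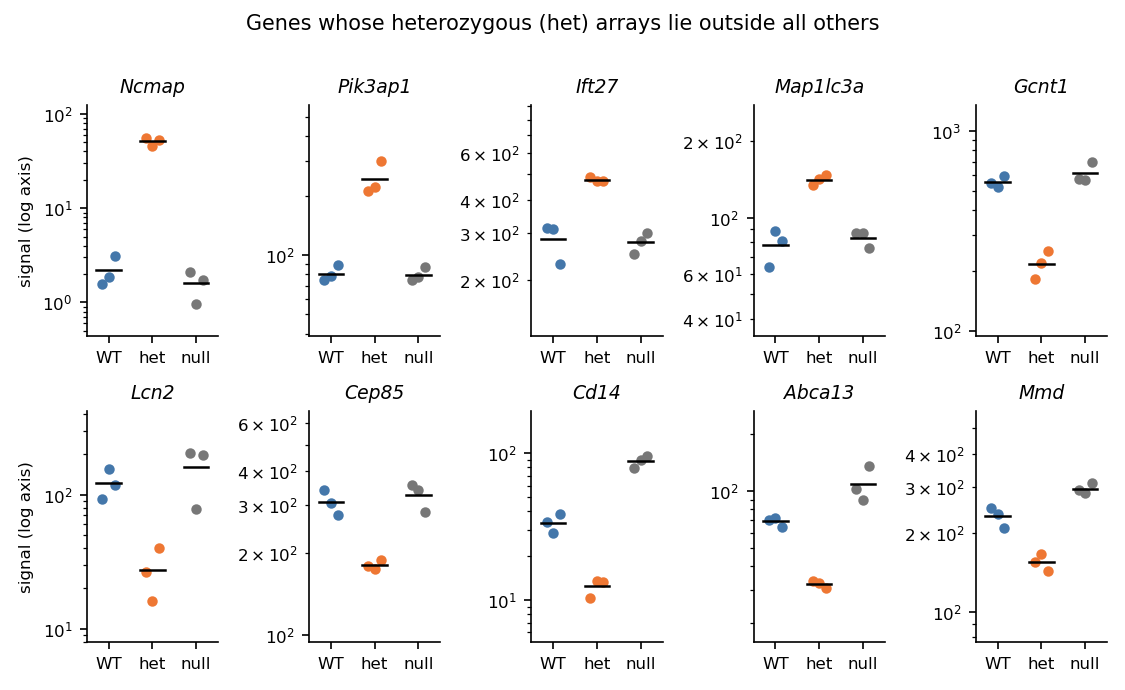
Signals (y axis, log scale, MAS5 intensity) of 10 genes on the 3 wild-type, 3 heterozygous and 3 null arrays, with a bar at the mean of each group. In every panel the heterozygous arrays lie above or below all 6 others, and for Cd14, Abca13 and Mmd the null arrays lie on the other side of wild type.

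Further genes passed in the contrast with the mean of the others and not against wild type alone. Haao, Lsp1, Clec4b1, Rfxank, Klrb1f and Fam135b were among its 10 largest rises, but their differences from wild type, 0.47 to 0.72, did not pass (adjusted p = 0.115 to 0.432). The mean of Fam135b passed the low-signal filter only with the heterozygous arrays included. It read 10.8, 10.5 and 7.21 on wild-type, 17.9, 28.9 and 15.4 on heterozygous and 1.46, 4.87 and 7.66 on null arrays. Among its 10 largest falls the same held for Mycn (-1.11, adjusted p = 0.0586), the transcription factor gene Klf2 (-0.83, adjusted p = 0.111) and Inhba (-0.81, adjusted p = 0.223). Mycn, a MYC family transcription factor and let-7 list member, passed as lower against wild type when wild-type replicate 2 was left out (-1.35, adjusted p = 0.0235). It also passed with a pseudocount of 4 (adjusted p = 0.0485) and with array weights (adjusted p = 0.0247). Its signals were dim, 24.3, 15.7 and 45.6 on wild-type and 10.1, 5.41 and 2.95 on heterozygous arrays. The other probe sets of Mycn gave -0.31 to 0.21 and those of Rfxank -0.25 to 0.04, with 0 called for either gene.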

How the data were processed

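The 9 arrays were normalised by the authors with MAS5, per the submitters' processing notes, whose version and settings are not given in the sources used here. The deposited values are intensity on a linear scale, with a 2% trimmed mean of 100 on every array. Of 45101 probe sets, 34945 had 1 gene symbol in the platform annotation, 932 several and 9160 none, and 64 controls were set aside. The brightest probe set stood for each of 18193 genes, and 12347 with a mean signal of at least 8.49 (the 40th percentile) were tested.

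Values were analysed as log2(signal + 12) in limma 3.58.1 (R 4.3.3) with 1 mean per genotype over all 9 arrays, an intensity trend and Benjamini-Hochberg adjustment at 0.05. The number of arrays, 3 per genotype, limits the precision. The code was tested on simulated data with 200 changed genes of 12347, and it recovered 72% of 2-fold and 41% of 1.5-fold changes with 8 false calls. Fold changes stand for differences of this log2 value.

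Named genes are the 15 largest rises and falls that passed without overlap of the arrays, and the 10 largest rises and falls against the mean of the other genotypes whose values lay outside all 6 other arrays. In each list they are the members that passed or otherwise the 2 of smallest p. Dicer1, those of its 10 neighbours on each side that passed, Xist and Eif2s3y were added, and other members named were picked with their values known. The comparison, the lists and the members were chosen with earlier results of these data known. Gene order and sequences are from RefSeq on GRCm38.p6. Alternatives were the pseudocount, the filter, quantile and cyclic loess normalisation, the variance prior, array weights, the mean of probe sets, a fit of heterozygous and wild-type arrays only, a replicate block and leaving out each array.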

Additional observations from a re-analysis of the deposited data

Results flagged for a closer look

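The control probe sets for 18S ribosomal RNA, which no comparison of genes used, were brighter on heterozygous arrays than on all others. Their mean signals on heterozygous arrays were 1015 ± 77.5 for the 3′, 2746 ± 331 for the 5′ and 2996 ± 50.2 for the middle probe set (SD, n = 3). On wild-type arrays they were 569 ± 112, 1314 ± 544 and 1252 ± 460, and on null arrays 630 ± 119, 1553 ± 252 and 1780 ± 629. Each of the 3 probe sets separated heterozygous from wild-type arrays, with an exact two-sided permutation p of 0.1, the smallest that 3 against 3 allow. Groups of 3 arrays are too small for the test of single outlying samples.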

How the results depend on the processing

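The 172 genes called against wild type became 112 with no filter on low signals, 83 without the intensity trend and 83 with the mean of each gene's probe sets, and leaving out 1 array gave 99 to 169. The 284 genes called against the mean of the other genotypes and outside all 6 other arrays became 77 without the trend and 151 with the mean of probe sets, and leaving out 1 array gave 83 to 357, with 83 without heterozygous replicate 1 and 164 without heterozygous replicate 2. Dicer1 passed with the mean of probe sets (-0.51, adjusted p = 0.0174) and ranged from -0.36 to -0.25 when 1 array was left out. Leaving out 1 array gave -0.050 to 1.68 for Kdm5d and -0.17 to 2.77 for Eif2s3y, neither called, and both were below 0 without wild-type replicate 2. A replicate block gave 201 genes against wild type, 163 of them among the 172, but same-numbered samples did not deviate together (correlations of -0.03 to 0.14), so the numbers are not taken as pairs. With that block Hspa1b passed (adjusted p = 0.0176). Of 50 named genes that passed, 26 passed with the same sign under all 21 alternatives. Dim genes are limited by the pseudocount and by signal near background. The causes of these differences were not tested.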
